A study of Solanum lycopersicum with 18 samples.

Results

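Wild-type (WT) tomato leaves were profiled by RNA-seq before heat and after 1 h at 45 °C, and the change in the leaf transcriptome over that hour is described here. The members are the 6 WT libraries of the 18 in the series, 3 at 0 h and 3 at 1 h, and the 15312 of 35821 annotated genes that reached 50 counts in 2 or more of the 18 libraries. All plants were cv. Moneymaker, 4 weeks old, grown in pots at 24 °C with 16 h of light, and RNA came from the fourth leaf. Per the methods, each replicate pooled seedlings. The 0 h group received no heat, and the 1 h group received 1 h at 45 °C in a climatic chamber. The other 12 libraries are 2 hsfa1a RNAi knock-down lines at the same times. They entered the count filter, the scaling and the shared estimate of spread, but not the contrast. The labels call the 3 libraries of a group biological replicates without placing them in separate growth rounds. The p-values therefore measure the spread between libraries of a group, estimated over all 18 libraries. Libraries held 2087511 to 3525858 gene counts. Leaf identity was checked on marker genes: 19 nuclear genes of light harvesting and the photosystems summed to a mean of 5117 CPM at 0 h and 6904 CPM at 1 h, whereas the fruit and pollen markers that could be paired with an identifier summed to 0.215 CPM and 0 CPM. CPM here are gene counts scaled to a common library total after TMM normalization, so they compare a gene between libraries but not genes of unequal length. Each tissue sample mixes cell types, and fewer cells of a type cannot be told apart from less RNA per cell.

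When plant cells are heated, proteins unfold and heat stress transcription factors (HSFs) bind heat shock elements in promoters. Their targets include the chaperones: small heat shock proteins hold unfolding proteins, HSP70 and HSP90 refold and mature them, and HSP100 proteins pull aggregates apart. Leaves under heat also change hormone signalling, and young leaf tissue slows growth and cell division. In tomato the factors HSFA1a, HSFA2 and HSFB1 are known as a network in which HSFA1a acts at the onset and HSFA2 accumulates during continued heat.

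Of the 15312 genes tested, 7563 passed an adjusted p of 0.05 in edgeR's quasi-likelihood test (49.4%) and 7749 did not. Among the genes called, 3701 were higher at 1 h (24.2%) and 3862 were lower (25.2%). When 50 counts were required in 2 WT libraries, 6877 genes were called, 3272 higher and 3605 lower. With library size alone as the scaling, the calls split as 2685 higher and 4766 lower, so higher genes made up 36.0% of calls in place of 48.9%. That scaling shifted the median log2 fold change of all genes from 0.0 to -0.14, and no gene was called in opposite directions under both.

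Among the genes tested, rises reached larger folds than falls. At a minimum fold of 2, 1393 genes were higher (9.1%) and 1833 were lower (12%). At a fold of 4 there were 457 genes higher (2.98%) and 516 lower (3.37%). The order turned at a fold of 8, with 228 genes higher (1.49%) and 129 lower (0.842%), and at a fold of 16 there were 120 genes higher (0.784%) against 23 lower (0.15%). Of the 228, 51 began under 1 CPM at 0 h, 38 at 1 to 3 CPM and 62 at 3 to 10 CPM. Genes this low enter the test mainly through libraries where they are higher. In addition, 3 counts stand for 0.956 CPM at 0 h and 1.46 CPM at 1 h, so falls reach the floor sooner. The part of filter and depth in this order was not tested. The median log2 fold change was 0.8 among genes called higher and -0.96 among genes called lower. For 3590 of the genes called higher (97.0%) every 1 h library lay above every 0 h library, and for 3686 of those called lower (95.4%) every 1 h library lay below. Over all genes tested, groups lay apart in this way for 29.4% in the upward and 29.3% in the downward direction, 58.7% in all.

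**Figure D1:**
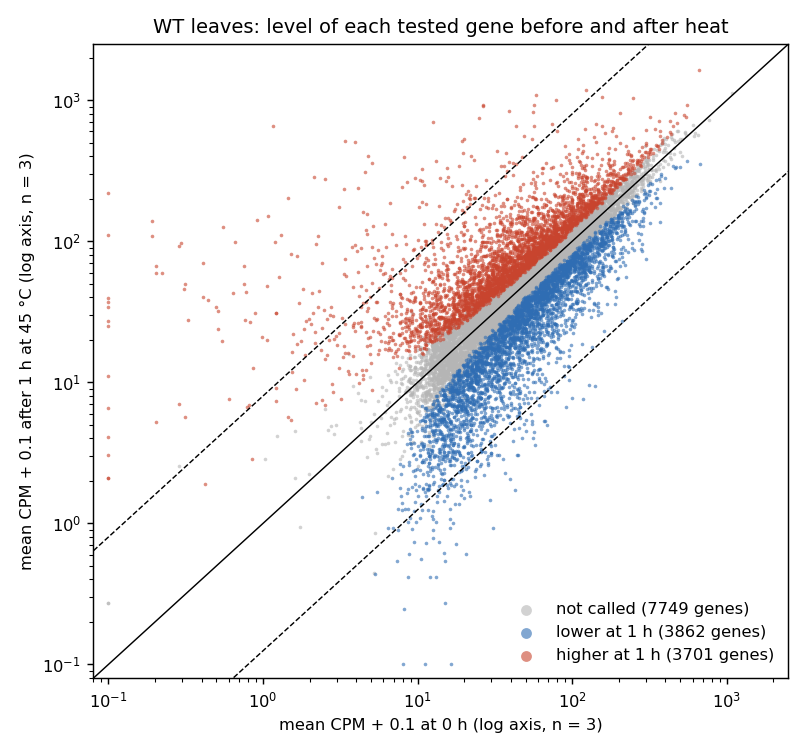
Mean level of each of the 15312 tested genes at 0 h (x axis) and after 1 h at 45 °C (y axis), in CPM plus 0.1 on log axes, 3 libraries a time. The solid line marks equal levels and the dashed lines mark 8-fold differences: 228 called genes lie on or beyond the upper dashed line in the fit and 129 beyond the lower, and genes near 0 at 0 h spread far upwards.

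The share of gene counts that these genes took moved by similar amounts. Duplicate reads were removed before counting, so these are not shares of messenger RNA, and abundant transcripts weigh less in them. Genes called higher held 20.6% to 21.7% of all gene counts in the 0 h libraries and 36.4% to 38.8% in the 1 h libraries. Genes called lower went from 25.1% to 25.8% of counts at 0 h to 12.3% to 13.4% at 1 h. The 228 genes at least 8-fold higher took 0.243% to 0.253% of counts before heat and 3.36% to 4.0% after it. These gene sets were chosen on the same libraries, so the direction of each share was fixed by the choice. Of the 100 genes with the highest mean CPM at 0 h, 52 were also among the 100 highest at 1 h, and 68 of the 100 highest at 1 h were called higher. Fewer genes had any count after heat: 21974 to 22074 at 0 h against 20990 to 21206 at 1 h, with 0 h libraries of 2676951 to 3525858 counts and 1 h libraries of 2087511 to 2393059, and the part of depth in that difference was not tested.

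**Figure D2:**
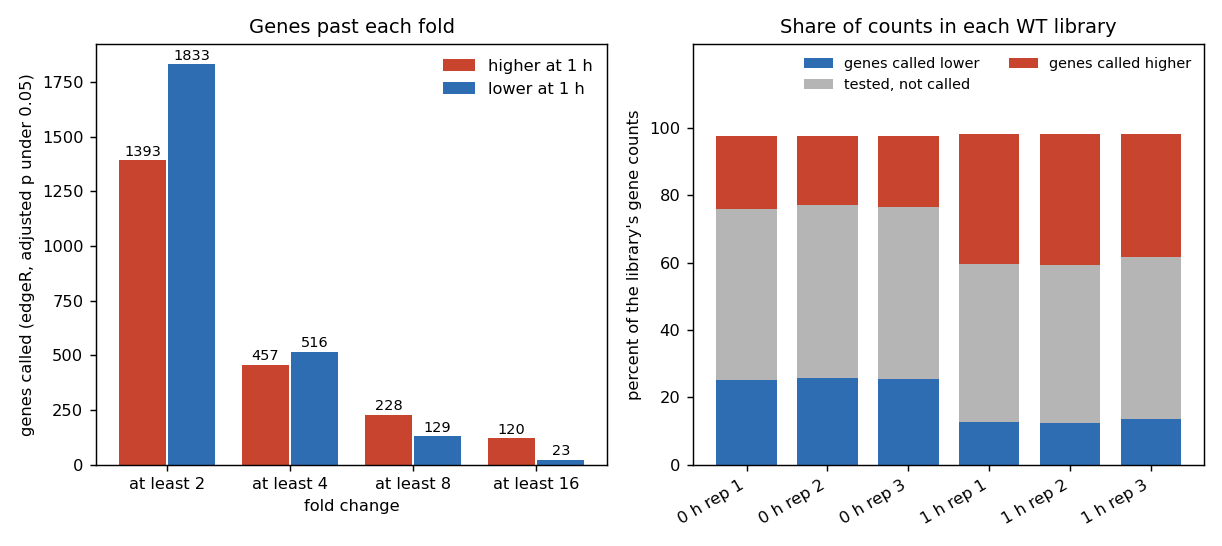
Left, number of genes called higher (red) or lower (blue) at 1 h past folds of 2, 4, 8 and 16. Right, percent of each WT library's gene counts on genes called lower (blue), tested and not called (grey) and called higher (red), one bar per library: the red share is 20.6% to 21.7% at 0 h and 36.4% to 38.8% at 1 h.

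Some genes went from no reads to high levels. Of the genes called higher, 13 had no count in any 0 h library, and 40 went from under 1 CPM to at least 10 CPM. In the other direction 21 genes went from at least 10 CPM to under 1 CPM, and 3 had no count in any 1 h library. Genes this low at 0 h entered the test only through their high libraries, so their number says nothing about how often silent genes respond. The genes in the next sentences were chosen after their values were seen. TomatoPan028850 (chromosome 4, 64190601 to 64191793 in the M82 assembly) was at 0 CPM in the 3 libraries at 0 h and at 215, 272 and 166 CPM at 1 h, at least 228-fold higher when 3 counts per library are taken as the floor. Solyc03g118060.3 (chromosome 3, 63086041 to 63086882) went from 0 to 119.5, 108 and 104.9 CPM, at least 116-fold higher. Neither has a name in the files or the reference used. Among genes with counts in all 6 libraries the largest rise was that of Solyc09g015010.2 (chromosome 9, 7539994 to 7549652), which read 0.311, 1.38 and 1.47 CPM at 0 h and 665.5, 788 and 507 CPM at 1 h. Its groups were far apart, and its fitted rise was 598-fold (log2 fold change 9.22, SE 0.437, edgeR adjusted p 3.5e-11). Solyc02g071080.3 went the other way, from 16.8, 11.9 and 20.3 CPM to 0 in all 3 libraries, at least 11.1-fold lower.

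Of 4 heat stress factor genes in the list, 3 were called higher and HSFA1A was not. HSFA1A (Solyc08g005170.3) read between 66.6 and 84.5 CPM at 0 h and between 61.9 and 78.1 CPM at 1 h, groups that overlapped, with a log2 fold change of -0.07 (SE 0.158, edgeR adjusted p 0.74). HSTF24 (Solyc02g090820.3, chromosome 2, 52031596 to 52034946), the gene of a class B factor that represses or assists class A factors, read 18.9, 15.5 and 15.5 CPM at 0 h. After heat it read 250.5, 277 and 215 CPM, a 14.8-fold rise (log2 3.89, SE 0.32, edgeR adjusted p 1.8e-08) with no overlap between the times. HSFA3, a class A factor placed downstream of DREB2 proteins in Arabidopsis, rose from 169 ± 19.7 to 419 ± 74.5 CPM (SD, n = 3; log2 1.31). HSFA2 ended at 532, 584 and 434 CPM.

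All 6 tested small heat shock protein genes and all 9 tested genes of the HSP70, HSP90, HSP100 and partner list were called higher, against 24.2% of all genes. Their median log2 fold changes were 4.3 and 2.24, beside 0.0 over all genes tested. The cytosolic hsc70.3 (Solyc04g011440.4, chromosome 4, 3972510 to 3975750), an HSP70 chaperone, read 27.0, 22.4 and 29.1 CPM at 0 h and 954, 1005 and 832 CPM at 1 h. That is a 35.7-fold rise (log2 5.16, SE 0.328, edgeR adjusted p 7.2e-10), with no overlap between the times. HSP100/CLPB (Solyc02g088610.4, chromosome 2, 50381716 to 50388829), the disaggregase, had the largest gain in mean CPM of the genes tested, from 104, 141 and 122 CPM to 1184, 1329 and 1052 CPM. HSP90 (Solyc06g036290.3) read 89.8, 178 and 199.6 CPM before heat, a wider spread relative to its mean than after it, at 1095, 1161 and 924 CPM, and rose 6.81-fold. HSC80, the constitutive HSP90, moved least, from 528 ± 56.6 to 789 ± 58.9 CPM (log2 0.58, edgeR adjusted p 0.0063). The same list holds chaperones of other compartments, named here after their values were seen. BiP/grp78, the HSP70 of the endoplasmic reticulum, rose 2.01-fold, and CPN21, the chloroplast co-chaperonin, rose 2.22-fold. Both rose less than hsc70.3, the largest riser of the list, and more than HSC80.

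**Figure D3:**
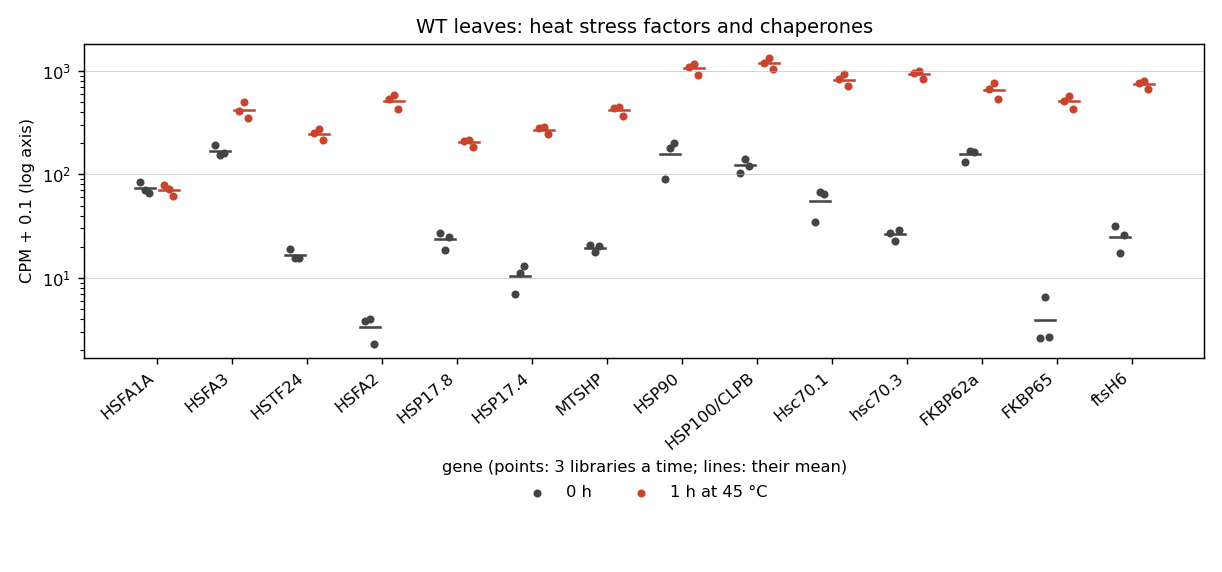
CPM plus 0.1 on a log axis for heat stress factors, chaperones, FKBP immunophilins and the protease gene ftsH6 in the 6 WT libraries, dark points at 0 h and red points after 1 h at 45 °C, lines at the mean of 3 libraries. HSFA1A has a mean of 73.8 CPM at 0 h and 70.5 CPM at 1 h, FKBP65 goes from at most 6.36 CPM to at least 433 CPM, and the 0 h libraries of HSP90 lie between 89.8 and 199.6 CPM.

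Counts of the strongest and shortest of these genes were limited from above. PCR duplicates were removed from single-end reads by the authors, so reads that start at the same base are counted once and a gene can hold few more counts than it has bases. The highest count divided by gene length reached at least 0.3 in 4.85% of tested genes and in 26.3% of genes at least 8-fold higher. It reached 0.958 for Hsp20.0 (Solyc06g076570.4, chromosome 6, 50229439 to 50230009), a cytosolic small heat shock protein gene. Its log2 fold change was 4.68 as counted and 6.29 after each count was corrected for positions already filled. For HSP17.8, another gene of this family on chromosome 6, the values were 3.12 and 4.36, and for the mitochondrial MTSHP, at 20.5, 17.7 and 20.3 CPM before and 440, 450 and 370 CPM after heat, they were 4.43 and 5.10. The correction raises large counts more than small ones, so it widens rises of genes whose raw counts are larger at 1 h. Where the larger raw counts lie in the 0 h libraries it lowers the value. For the translation gene RPL3 the log2 fold change was 0.27 as counted and 0.23 after correction.

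FKBP immunophilins are prolyl isomerases, and the large forms carry domains that dock onto HSP90. All 19 genes with an FKBP symbol passed the count filter. Of these, 8 were called higher (42.1%) and 3 lower (15.8%), against 24.2% and 25.2% of all genes. With library size alone as the scaling 4 were higher and 5 lower. FKBP65 (Solyc09g092690.3, chromosome 9, 68045836 to 68050234) stood apart from the other 18, from 2.49, 6.36 and 2.58 CPM at 0 h to 513, 578 and 433 CPM at 1 h. It rose 127-fold (log2 6.99, SE 0.457, edgeR adjusted p 1e-09), and 7.62 on the log2 scale without replicate 2 at 0 h, the highest library of that time. FKBP42 (Solyc01g087470.3), the homologue of Arabidopsis TWISTED DWARF1, rose from 34.5, 35.1 and 39.4 to 204, 173 and 157 CPM, 4.9-fold. FKBP62a (Solyc06g083190.4) rose from 133, 170 and 166 to 672, 759 and 534 CPM, 4.2-fold. The remaining called members moved less: the fourth largest rise was that of FKBP15-3, from 30.2 ± 14.1 to 60.1 ± 7.27 CPM, and the largest fall in the family was 0.85 on the log2 scale. Summed over the family, levels went from 1028 to 1195 CPM at 0 h to 2158 to 2531 CPM at 1 h, and the 3 genes named first account for most of the gain.

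MBF1 proteins are coactivators that plants raise under heat, and galactinol synthases make the first intermediate of raffinose sugars. In the list of both families 4 of 5 tested genes were called higher. ER24 (Solyc01g104740.3, chromosome 1, 87341482 to 87342379), of the MBF1 family, read 19.3, 12.5 and 9.57 CPM at 0 h and 296, 298 and 243 CPM at 1 h, a 20-fold rise (log2 4.33, SE 0.267, and 4.97 after the correction for filled positions). The gene paired with the symbol MBF1c (Solyc07g062400.3) rose far less, from 55.2 ± 11.7 to 80.4 ± 6.83 CPM, and MBF1a was called at an adjusted p of 0.036 in edgeR but in none of 5 fits that left out a library other than replicate 1 at 0 h. GolS2 (Solyc02g084980.3) read 2.17, 2.21 and 2.58 CPM at 0 h and 68.8, 100.6 and 41.7 CPM at 1 h, 29.8-fold higher on average but with a 1 h SD of 29.5 CPM.

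Other genes with a symbol rose as far. ftsH6 (Solyc02g081550.3, chromosome 2, 45056913 to 45059617), an FtsH protease of the chloroplast, read 24.9 ± 7.02 CPM at 0 h and 770.0, 809 and 671 CPM at 1 h. This 30.3-fold rise (log2 4.92, SE 0.342, edgeR adjusted p 2.1e-09) came with no overlap between the times. PSR (Solyc02g079930.3) went from 4.35, 3.32 and 6.26 CPM to 423, 434 and 349 CPM, 87.9-fold. LAPA1 (Solyc12g010020.3), a wound-linked leucine aminopeptidase, went from 0.621, 1.38 and 0.368 to 27.9, 30.5 and 34.2 CPM, with a wide SE of 1.32 on a log2 fold change of 5.14, which was 5.81 without replicate 2 at 0 h. PSK2 (Solyc02g092120.3), the precursor of a phytosulfokine growth peptide, went from 0.668 ± 0.416 to 27.5 ± 8.37 CPM. SRG2 (Solyc07g040960.1) rose 58.1-fold on average, to 169, 258 and 94.8 CPM, the most variable of these at 1 h. Solyc09g074475.1, without a name, ended at 89.5, 68.1 and 78.5 CPM. The 0 h and 1 h libraries did not overlap for any of the 6, which was a condition for genes chosen as the largest rises. ACT (Solyc03g078400.3), a beta-actin gene often used as a reference, read 334 ± 30.9 CPM at 0 h and 378 ± 24.1 CPM at 1 h and was not called (edgeR adjusted p 0.3).

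**Figure D4:**
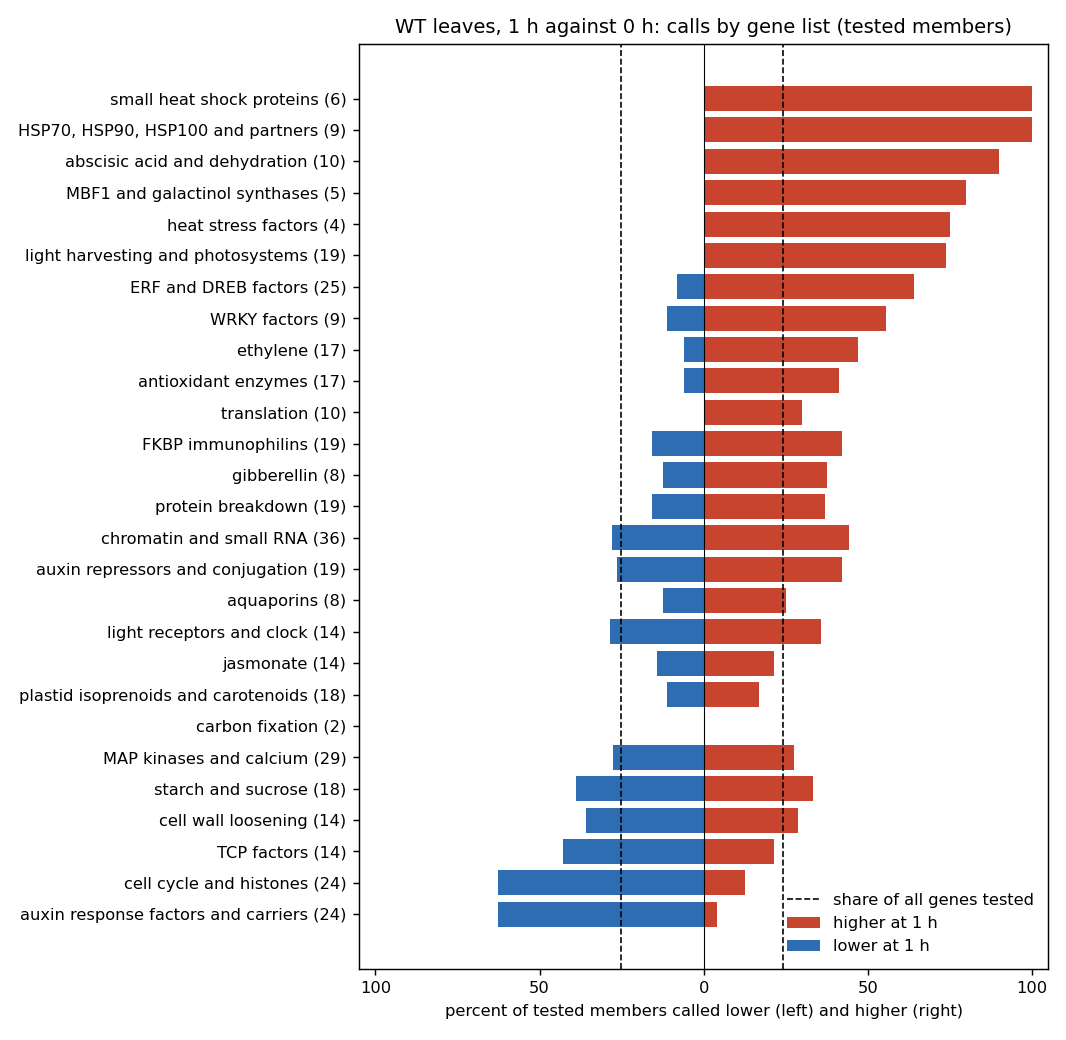
Percent of the tested members of each gene list called higher (red, right) and lower (blue, left) at 1 h, with the number tested in brackets. Dashed lines mark the shares over all 15312 genes, 24.2% higher and 25.2% lower: small heat shock proteins, HSP70 and HSP90 genes and abscisic acid genes lie furthest right, and auxin response factors and carriers and cell cycle genes furthest left.

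Beyond the chaperones, 547 symbols were placed in 28 lists of families and pathways, of which 531 were paired with an identifier. Over all genes tested 24.2% were called higher and 25.2% lower, the shares to set beside each list below. A list near these shares holds about as many calls as genes at large. Ethylene response factors (ERFs) are AP2 domain transcription factors, and DREB factors of the same family bind drought and heat-linked elements. Of 57 paired members 25 passed the count filter, and of these 16 were called higher and 2 lower, with a median log2 fold change of 0.68 (12 higher and 2 lower with library size alone). ERF-J1, ERF-H14 and ERF-D3 had means of 0, 0.338 and 0.215 CPM at 0 h. Members this low enter the test only through libraries where they are higher, so the filter fixed their direction. The same limit holds for members this low in the other lists. ERF-J1 (Solyc02g090770.1, chromosome 2, 52010118 to 52010729) had no count at 0 h and read 6.73, 19.8 and 6.14 CPM at 1 h, at least 11.4-fold higher, and at least 6.73-fold without replicate 2 at 1 h. ERF-H14 (Solyc05g052410.3) read 0, 0.277 and 0.736 CPM and then 22.3, 79.8 and 12.7 CPM. Replicate 2 at 1 h was the highest library for both, and without it the log2 fold change of ERF-H14 went from 6.72 to 5.59. It was 7.62 without replicate 3 at 0 h. ERF3 (Solyc10g009110.1) rose more evenly, from 23, 10.8 and 12.5 to 126, 110.2 and 101.4 CPM, 7.26-fold, and ERF-E5 rose 4.58-fold to 133 ± 20.3 CPM. JRE4, the ERF that controls steroidal glycoalkaloid synthesis in tomato, rose 1.82-fold.

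WRKY factors, which act in defence, included 5 called higher (55.6%) and 1 lower (11.1%) of 9 tested, and 5 higher and 2 lower with library size alone. SlWRKY4 (Solyc01g079260.4) rose from 16.8, 9.41 and 12.2 to 58.5, 56.4 and 49.1 CPM, 4.27-fold. WRKY80 rose from 8.43 ± 5.71 to 38.6 ± 3.77 CPM, and its log2 fold change of 2.20 was 2.90 without replicate 1 at 0 h. WRKY40, a repressor of defence and abscisic acid genes in Arabidopsis, rose 2.18-fold to 113 ± 11.2 CPM.

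Abscisic acid is the hormone of water deficit, and its list moved furthest upwards among the hormones. Of 10 tested genes 9 were called higher and none lower, with a median log2 fold change of 1.19 (8 higher with library size alone). The risers acted in synthesis, breakdown and signalling alike. FLACCA (Solyc07g066480.3), the sulfurase that activates the last enzyme of synthesis, rose from 25.8, 17.7 and 19.1 to 143, 84.8 and 129 CPM, 5.7-fold (log2 2.51, SE 0.341). CYP707A2 (Solyc08g005610.3), a hydroxylase that breaks the hormone down, rose from 2.49, 6.09 and 5.52 to 57.4, 17.3 and 25.9 CPM, and its log2 fold change of 2.81 was 2.20 without replicate 1 at 1 h. PP2C-2 (Solyc03g096670.3), a phosphatase that holds the signal back, rose from 23.6, 19.1 and 14.4 to 76.1, 174 and 96.1 CPM. DHN, a dehydrin, rose 3.35-fold to 335 ± 32.6 CPM, with no overlap between times for any of these 4.

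Ethylene genes included 8 called higher (47.1%) and 1 lower (5.88%) of 17 tested, against 24.2% and 25.2% of all genes. Of 5 tested receptor genes 2 were called higher, ETR5 (Solyc11g006180.2) from 71.4, 54.0 and 50.1 to 234, 176 and 191 CPM and ETR4 from 27.8 ± 4.65 to 62.1 ± 5.13 CPM. ETR1, ETR2 and ETR7 were not called, with log2 fold changes of 0.15, 0.07 and 0.31. EBF1, an F-box protein that removes EIN3-type factors, rose 2.19-fold, and ACO1, which makes ethylene, rose 2.64-fold. Jasmonate genes moved little as a list, with 3 of 14 called higher (21.4%) and 2 lower (14.3%), and 4 lower with library size alone. The 3 genes called higher act in signalling: MYC2, the main transcription factor, rose from 164 ± 25.5 to 314 ± 13.1 CPM, and the repressor gene SLJAZ3 rose from 69.9, 53.1 and 58.2 to 157, 145 and 176 CPM. JAZ2 was the third, and its call was lost in 4 of the fits that left out a library. OPR3, an enzyme of synthesis, fell from 85.5 ± 23.6 to 50.9 ± 4.28 CPM, a call lost without replicate 1 at 0 h or replicate 2 at 1 h. The synthesis genes AOS and opr2 were below the count filter and not tested, at 0.104 ± 0.179 and 5.68 ± 1.72 CPM at 0 h and 18.1 ± 3.26 and 18.2 ± 4.63 CPM at 1 h.

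Among gibberellin genes a repressor gene fell and 2 of 3 tested receptor genes rose. GAI (Solyc11g011260.1, chromosome 11, 4309997 to 4311763), the DELLA protein that restrains growth, fell from 289, 265 and 302 to 142, 140 and 134 CPM, 2.06-fold (log2 -1.04, SE 0.121, edgeR adjusted p 1.3e-06). The receptor gene GID1b-1 (Solyc09g074270.3) rose from 14, 12.2 and 14 to 60, 66 and 54 CPM, 4.48-fold, and GID1b-2 rose 2.31-fold. The third receptor gene, GID1ac, was not called, at 50 ± 9.41 and 40.5 ± 2.75 CPM (log2 -0.3, edgeR adjusted p 0.17). GA2ox2, an enzyme that inactivates the hormone, rose from 8.24 ± 1.3 to 24.4 ± 4.41 CPM. In all, 3 of 8 tested genes were called higher (37.5%) and 1 lower (12.5%), against 24.2% and 25.2% of all genes.

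Auxin response factors (ARFs) turn the hormone signal into transcription, PIN proteins export auxin and LAX proteins import it. Of the 24 tested genes of these kinds 15 were called lower, against 25.2% of all genes, and 1 was called higher, with a median log2 fold change of -0.88 (17 lower and none higher with library size alone). LAX1 (Solyc09g014380.3, chromosome 9, 6097774 to 6102047) read 170.2, 149 and 182 CPM at 0 h and 40.9, 29.5 and 36.4 CPM at 1 h, a 4.68-fold fall (log2 -2.23, SE 0.142, edgeR adjusted p 7.7e-10). LAX3 (Solyc11g013310.2) fell from 54.4, 56.2 and 57.8 to 15, 13.7 and 14.9 CPM. LAX2 and LAX4, added after their values were seen, also fell, 2.99-fold and 3.29-fold, so the 4 LAX genes that passed the count filter were lower with no overlap between the times, and LAX5 was below it at 4.06 and 1.0 CPM. ARF7 (Solyc07g042260.4) fell from 175, 121 and 121 to 36.2, 30.5 and 43.0 CPM. ARF9 fell 3.5-fold, but its call was lost when replicate 2 at 0 h, replicate 1 at 1 h or replicate 2 at 1 h was left out, with values between -1.67 and -1.4, and it was -2.61 without replicate 3 at 1 h. The only riser, ARF1, moved from 191 ± 31.1 to 241 ± 4.12 CPM, and its call was lost with library size alone. PIN4, an exporter gene, read 282 ± 26.0 and 234 ± 51.1 CPM in groups that overlapped.

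Aux/IAA proteins repress ARFs, and GH3 enzymes conjugate auxin. Of the 19 tested genes 8 were called higher (42.1%) and 5 lower (26.3%), and 6 and 6 with library size alone. IAA15 (Solyc03g120390.3) rose from 9.32, 6.36 and 7 to 33.6, 56.4 and 36.9 CPM, 5.57-fold, and IAA3 rose from 30.6 ± 4.72 to 78.3 ± 12.9 CPM. IAA8 (Solyc12g007230.2) fell from 52.8, 46.5 and 49.7 to 13.5, 20.8 and 17.6 CPM. GH3-15 rose 2.56-fold to 46.6, 46.2 and 46.5 CPM.

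Of 24 tested genes of division, replication and histones, 15 were called lower and 3 higher, with a median log2 fold change of -0.89 (15 lower and 2 higher with library size alone). CDKB2 (Solyc04g082840.4, chromosome 4, 66138680 to 66140640), a mitotic kinase of plants, read 20.2, 39.8 and 32.8 CPM at 0 h and 4.14, 6.6 and 4.83 CPM at 1 h, a 5.94-fold fall (log2 -2.57, SE 0.422, edgeR adjusted p 6.6e-05). CYCB1-2 (Solyc10g080950.2), a mitotic cyclin, fell from 12.1, 26.6 and 14.7 to 2.07, 3.56 and 2.63 CPM. DNAPOLALPHA (Solyc02g093300.3), the polymerase that starts DNA synthesis, fell from 33.9, 70.6 and 32.8 to 5.69, 11.7 and 7.46 CPM. Replicate 2 was the highest library of its time for all 3 genes at 0 h and also at 1 h, and the part of tissue composition in this was not tested. The anaphase activator gene cdc20-1 fell 4.26-fold. Members named after their values were seen include RBR1, the retinoblastoma-related brake on division, which fell from 80.9 ± 6.23 to 31.4 ± 8.0 CPM. The cyclin-kinase inhibitor genes differed: krp1 rose from 53.3 ± 2.05 to 106 ± 31.1 CPM, and krp4 was called lower, from 34.6 ± 7.49 to 24.9 ± 1.34 CPM. Of the others, krp3 was not called (log2 -0.22) and krp2 was below the count filter. Histone genes moved less: H1 read 168 ± 11.0 and 153 ± 7.14 CPM, HTA6 read 106 ± 11.7 and 96.3 ± 4.84 CPM, and neither was called.

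TCP factors steer leaf growth, and 6 of 14 tested were called lower (42.9%) and 3 higher (21.4%), against 25.2% and 24.2% of all genes. With library size alone 6 were lower and 1 higher. lanceolate (Solyc07g062680.3, chromosome 7, 65767658 to 65768860), which decides between simple and compound tomato leaves, read 94.4, 106 and 100.2 CPM at 0 h and 31.0, 11.7 and 24.6 CPM at 1 h, a 4.46-fold fall (log2 -2.16, SE 0.243). TCP3, TCP11 and TCP17 fell 2.2-fold to 2.61-fold. Expansins and xyloglucan enzymes loosen the cell wall, and 5 of 14 were called lower (35.7%) and 4 higher (28.6%), not far from the shares over all genes. With library size alone 7 were lower and 2 higher. exp18 (Solyc06g076220.3, chromosome 6, 50028440 to 50030470), an expansin, fell from 55.0, 59.2 and 62.6 to 9.83, 6.1 and 7.02 CPM, 7.69-fold, and SLXTH15 fell from 37.6, 33.8 and 47.5 to 7.24, 6.1 and 11.4 CPM. In contrast EXLA1, an expansin-like gene, rose from 13.6 ± 1.5 to 56.1 ± 4.8 CPM, and the expansin genes exp11 and EXP2 were not called.

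**Figure D5:**
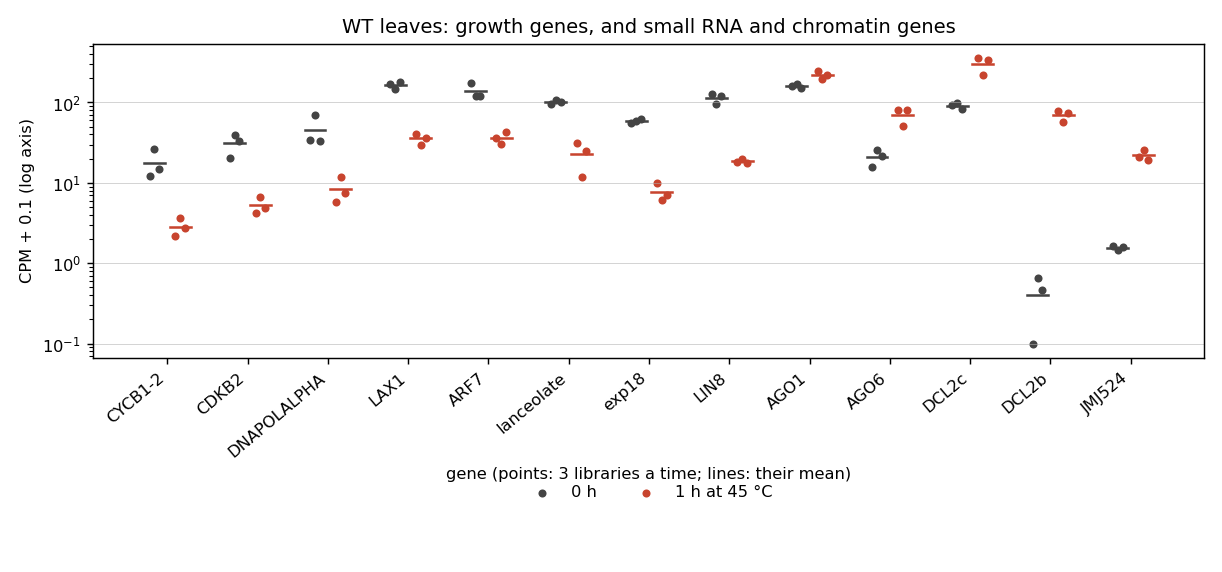
CPM plus 0.1 on a log axis for genes of division, auxin, leaf shape and wall growth (CYCB1-2 to LIN8) and of small RNA and chromatin pathways (AGO1 to JMJ524) in the 6 WT libraries, dark points at 0 h, red points after 1 h at 45 °C, lines at the mean of 3. The first 8 genes lie 3.78-fold to 7.69-fold lower after heat, and DCL2b goes from under 1 CPM to between 56.4 and 78.1 CPM.

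Small RNA and chromatin genes changed in both directions, with 16 called higher (44.4%) and 10 lower (27.8%) of 36 tested and a median log2 fold change of 0.06. With library size alone 12 were higher and 13 lower. Dicer-like enzymes cut double-stranded RNA, and DCL2 proteins act in antiviral silencing. DCL2b (Solyc11g008520.3, chromosome 11, 2697399 to 2704207) read 0, 0.553 and 0.368 CPM at 0 h and 78.1, 56.4 and 73.7 CPM at 1 h. This was the largest change of the list, 193-fold (log2 7.60, SE 0.432, edgeR adjusted p 2.1e-10), and 8.34 on the log2 scale without replicate 2 at 0 h. All its 0 h readings lie under 0.956 CPM, the level of 3 counts, so the size of this fold is uncertain. DCL2c (Solyc11g008540.3, chromosome 11, 2721398 to 2730748) rose from 92.0, 97.7 and 84.0 to 355, 220.5 and 335 CPM, 3.32-fold. Between both lies DCL2d (2706661 to 2718081), named after its values were seen, which rose 3.03-fold from 25.6 ± 14.1 to 77.4 ± 28.4 CPM. These are neighbouring genes of 1 family, and how reads of like stretches were split among them is uncertain. DCL2a on chromosome 6 went the other way, from 34.5, 37.1 and 30.9 to 14, 17.3 and 20.2 CPM. DCL3, which makes the small RNAs of DNA methylation, fell from 51.1 ± 5.7 to 18.6 ± 0.888 CPM.

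Argonautes, which load small RNAs, also differed. AGO6 (Solyc07g049500.3) rose from 15.5, 25.7 and 21.7 to 80.7, 50.3 and 79.4 CPM, 3.33-fold, and AGO1 rose 1.39-fold, not called with library size alone. AGO1B, named after its values were seen, fell 2.77-fold from 172 ± 2.14 to 61.8 ± 8.9 CPM. JMJ524 (Solyc01g006680.4, chromosome 1, 1248418 to 1252725), a jumonji-type histone demethylase, read 1.55, 1.38 and 1.47 CPM at 0 h and 20.7, 25.9 and 18.9 CPM at 1 h, 14.4-fold higher (log2 3.85, SE 0.399). Among DNA methylation genes, named after their values were seen, CMT3, a methyltransferase of CHG sites, fell 3.2-fold and DNMT2, which methylates transfer RNA in other species, rose 3.31-fold. The 4 DEMETER-like demethylase genes DML1 to DML4 were all called lower.

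Signalling genes for calcium and MAP kinase cascades included 8 called higher and 8 lower of 29 tested (8 and 11 with library size alone), 27.6% each way against 24.2% and 25.2% of all genes. The calmodulin genes CaM5 and CaM2 rose 2.65-fold and 1.98-fold, and CIPK11 (Solyc06g082440.1), a kinase read out by calcium sensors, rose from 13.7, 4.98 and 6.26 to 33.6, 28.4 and 30.3 CPM. Wfi1 (Solyc03g117980.3), an NADPH oxidase that makes reactive oxygen, rose from 52.2, 37.1 and 29.8 to 109, 78.2 and 107.5 CPM. MKK3 (Solyc03g119490.4), a MAP kinase kinase, fell from 9.32, 12.5 and 10.7 to 2.07, 5.59 and 2.63 CPM. Ubiquitin conjugation and proteasome genes included 7 called higher (36.8%) and 3 lower (15.8%) of 19, and 6 and 4 with library size alone. Among the genes called higher, UBC33 (Solyc03g123660.3) rose from 57.8, 49.5 and 44.6 to 132, 150 and 116 CPM, and the polyubiquitin gene ubq1-1 rose 1.93-fold. Of 10 tested translation genes 3 were called higher by at most 0.44 on the log2 scale and none with library size alone.

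Of 19 tested nuclear genes of light harvesting and photosystems 14 were called higher and none lower, but only 3 with library size alone, and their largest log2 fold change was 0.59. Cab-3C, which encodes a light-harvesting protein, read 279, 243 and 318 CPM at 0 h and 428, 406 and 369 CPM at 1 h. PETE, the plastocyanin gene, had the largest rise, from 177 ± 25 to 266 ± 21.6 CPM, with a highest count of 1.07 per base, and 18 of the 19 genes reached 0.3 counts per base. A count held near its upper limit gives a higher CPM in a library with fewer counts. The 1 h libraries held 2087511 to 2393059 counts and the 0 h libraries 2676951 to 3525858. The correction for filled positions was fitted to all genes tested, but its values for this list are not given here. The part of the limit in these rises was therefore not assessed. rbcS2 and SBPASE, of the Calvin cycle, were not called. The antioxidant genes included 7 called higher (41.2%) and 1 lower (5.88%) of 17, against 24.2% and 25.2% of all genes, and 6 and 2 with library size alone. They were led by the ascorbate peroxidase gene APX2 (Solyc06g005150.3), which rose from 42.2, 49.5 and 47.5 to 124, 109 and 117 CPM. Its neighbour APX1 rose 1.62-fold, and cat1, of catalase, fell from 253 ± 47.6 to 190 ± 19.5 CPM, a call lost when replicate 1 at 0 h or replicate 2 or 3 at 1 h was left out.

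Of 18 tested carotenoid and isoprenoid genes 3 were called higher (16.7%) and 2 lower (11.1%), and 1 higher and 5 lower with library size alone. Psy1, phytoene synthase, fell 1.47-fold, and CrtR-b2, a carotene hydroxylase, rose from 7.46, 3.6 and 2.58 to 20.2, 25.4 and 21.9 CPM. Starch and sucrose genes included 6 called higher and 7 lower of 18 (5 and 8 with library size alone), 33.3% and 38.9% against 24.2% and 25.2% of all genes. The beta-amylase genes BMY3 and BAM1 and the sucrose synthase gene sus3 rose 1.64-fold, 1.69-fold and 2.9-fold. LIN8 (Solyc10g083300.2, chromosome 10, 63923178 to 63928572), a cell wall invertase, fell from 128, 96.6 and 121 to 18.1, 19.8 and 17.6 CPM, 6.22-fold (log2 -2.64, SE 0.283). Its neighbour Wiv-1 fell from 13.7, 20.2 and 16.9 to 6.73, 0.508 and 2.19 CPM, a log2 fold change of -2.44 that was -3.55 without replicate 1 at 1 h. Cell wall invertases split sucrose where growing tissue takes it up. Among 8 aquaporin genes 2 were called higher and 1 lower, the latter XIP1-1-beta (Solyc10g054840.2), which fell from 41.9, 32.1 and 50.4 to 7.76, 4.57 and 7.02 CPM. Of 14 light receptor and clock genes 5 were called higher (35.7%) and 4 lower (28.6%), and 4 and 6 with library size alone. CO1, a CONSTANS-type factor, fell 2.34-fold, PHYB2 fell 1.78-fold, and CRY2 and PHYF rose 1.75-fold and 1.7-fold.

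Among genes with a symbol and at least 10 CPM at 0 h, several of the largest falls lay outside the lists. F3'5'H (Solyc11g066580.3, chromosome 11, 55556086 to 55559921), the hydroxylase of blue anthocyanins, read 12.7, 16.3 and 10.3 CPM at 0 h and 0, 0.508 and 0.439 CPM at 1 h, 35.9-fold lower (log2 -5.17, SE 0.712, edgeR adjusted p 1e-05). All its 1 h readings lie under 1.46 CPM, the level of 3 counts, so the size of this fold is uncertain. A cluster of subtilisin-like protease genes on chromosome 8 fell: p69c (Solyc08g079880.2, 64139896 to 64142160) from 73.0, 55.9 and 77.3 to 3.1, 5.08 and 6.58 CPM, a second gene of that symbol (Solyc08g079860.2, 64119404 to 64121614) from 49.8 ± 6.04 to 5.32 ± 0.65 CPM, and P69B between them from 21 ± 8.83 to 2.42 ± 0.335 CPM. These are tandem genes of 1 family, and how their reads were split is uncertain. ARF/XYL2 (Solyc01g079570.3), a glycosidase of wall sugars, fell 9.18-fold from 53.8 ± 4.65 CPM, and MDR1 (Solyc02g087870.3), a multidrug-type ABC transporter, fell from 89.5, 102 and 72.9 to 7.24, 14.2 and 11.4 CPM.

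Other large falls rested on variable 0 h libraries. TKR (Solyc07g065210.4) read 25.2, 73.6 and 28.4 CPM at 0 h, and its log2 fold change of -4.69 was -4.01 without replicate 2. PHO1-1, a phosphate exporter of the PHO1 family, read 65.5, 12.7 and 22.1 CPM at 0 h, and its log2 fold change of -3.50 was -2.54 without replicate 1 at 0 h and -4.30 without replicate 2 at 1 h. CYP96A48, a cytochrome P450, read 22.1, 72.5 and 69.6 CPM at 0 h and at most 6.21 CPM at 1 h. The largest losses in level among named genes were those of SD1, from 312, 444 and 345 to 137, 122 and 151 CPM, LEXYL2, a beta-xylosidase, from 281 ± 26.6 to 85.0 ± 6.05 CPM, SlmCLV1, from 282 ± 8.63 to 96.2 ± 20.5 CPM, and ICL, isocitrate lyase of the glyoxylate cycle, from 317 ± 23.6 to 134 ± 2.68 CPM. None of these 4 overlapped between times.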

How the data were processed

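RNA was taken from WT tomato leaves before and after 1 h at 45 °C. Per the labels and methods, single-end reads from a stranded kit were trimmed (Trimmomatic 0.38), aligned to the M82 genome, another cultivar than Moneymaker (Bowtie2 2.3.5 in the submitters' processing notes, STAR in the methods), filtered on mapping quality and duplicates (SAMtools 1.9) and counted over whole gene spans by featureCounts. The deposited values are raw counts per gene, made by the authors with no normalization. The labels give 3 replicates a group and the methods 2 replicates of pooled seedlings. No column of per-sample values was left unmapped.

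Genes that reached 50 counts in 2 or more of 18 libraries were tested with edgeR 4.0.16 in R 4.3.3: TMM scaling, 6 conditions, a quasi-likelihood test of WT 1 h against WT 0 h, and Benjamini-Hochberg adjustment over 15312 genes with a threshold of 0.05. Library size alone, upper-quartile factors, DESeq2 1.42.0, other filters, a test against a log2 fold change of 1, the 6 WT libraries alone, a replicate block, each library left out and a correction for filled read positions were alternatives. On simulated counts over 14681 genes, 81.4% of 97 genes changed 2-fold, 97.9% of 96 changed 4-fold and 0.0828% of 14488 unchanged genes were called. The simulation changed few genes, as many up as down, and set no upper limit on counts. In the real contrast 49.4% of genes were called, so these shares are not its error rates. An exact permutation test of 3 against 3 cannot go below p = 0.1, so single genes rest on the edgeR fit. A fold against a group with no counts used a floor of 3 counts per library. Totals of 2087511 to 3525858 counts limit precision for genes of a few counts. Intervals cover only counting error and the spread between replicate libraries, estimated over all 18 libraries.

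Symbols came from a RefSeq table of assembly SLM_r2.1, paired by position without use of strand: 17153 of 35479 chromosome identifiers were paired and 1572 had a symbol, so lists follow symbols, 16 list symbols were not paired, and most strongly changed genes have no name. HSFA2 was identified from the study. Named genes are those the study names, per list the called members with the largest change and the members with the highest CPM, and over all genes with a symbol the largest rises, falls, gains and losses, at a minimum of 10 CPM. The largest rises and falls were taken only from called genes whose groups do not overlap, so that trait was fixed by the choice. Members and lists were chosen with earlier results of these data known. Heat shock elements in promoters were not analysed here, since no genome sequence was used.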

Additional observations from a re-analysis of the deposited data

How the results depend on the processing

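The count of called genes stayed within 1.5 times of 7563 under every alternative run except the test against a log2 fold change of 1, which called 1556 genes, 745 higher and 811 lower. Leaving out 1 library gave 6335 to 7056 called genes, 3106 to 3421 higher and 3229 to 3635 lower. No called gene named here reversed. With library size alone, list counts that moved past 1.5 times were 4 higher and 5 lower for FKBP genes, 2 lower antioxidant genes, 3 higher light harvesting genes, 1 higher and 5 lower carotenoid genes, 2 lower WRKY genes, 1 higher TCP gene, 0 higher auxin response factors and carriers, 4 lower jasmonate genes, 2 higher cell wall genes and 0 higher translation genes. With the 6 WT libraries alone, 1 carbon fixation gene and 4 aquaporin genes were higher. Among 161 named genes, 2680 of 2847 values kept their direction and side of the threshold, 138 lost the call and 29 gained one. Same-numbered libraries had deviations that correlated at 0.135, 0.111 and -0.0992, so the numbers were not taken as pairs. With the replicate block 7634 genes were called in the 6 WT libraries (3598 higher, 4036 lower) and 7528 in the 18 (3662 higher, 3866 lower), and 3 named genes lost the call. Both alternatives for promoter motifs were not run. The causes of these shifts were not tested beyond what each setting changes by construction. Depth limits genes with a few counts, and positions already filled limit the strongest short genes.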

Other observations

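Transcripts of both organelle genomes took a small share of counts and differed in their response. Of 72 mitochondrial genes 5 passed the count filter, and all 5 were called higher, with a median log2 fold change of 1.77. Of 140 chloroplast genes 38 passed, and of these 3 were called higher and 1 lower. A gene as low at 0 h as ccmFc, at a mean of 2.08 CPM, enters the test only through libraries where it is higher. The filter therefore partly fixed the direction of such calls. The mitochondrial genome held 0.0232% to 0.0323% of counts at 0 h and 0.0586% to 0.0741% at 1 h, ranges that did not overlap. The chloroplast genome held 0.209% to 0.278% and 0.236% to 0.291%, ranges that did. The mitochondrial genes were named after their values were seen. ccmFc, for cytochrome c maturation, read 1.55, 2.49 and 2.21 CPM at 0 h and 11.4, 24.4 and 20.6 CPM at 1 h. atp1, a subunit of ATP synthase, read 19.9, 32.4 and 18 CPM and then 66.2, 85.8 and 69.3 CPM. For nad4, of complex I, 0 h replicate 2 was the highest of its time at 32.1 CPM, below the lowest 1 h library at 59.0 CPM.

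Called genes lay next to each other a little more often than the overall shares. Among 15257 pairs of neighbouring tested genes, the next gene was called higher in 24.2% of pairs and in 27.9% of those whose first gene was higher. Where the first gene was higher, the share was 29.5% for neighbours on the same strand, 24.2% for convergent pairs and 35.1% for pairs whose spans overlap. The last share rests on the part of 195 overlapping pairs with a higher first gene, and over all 195 it was 24.6%. These are descriptions with no test. The longest run of genes called higher held 10 genes on chromosome 9 (65575775 to 65806262, Solyc09g084470.3 to Solyc09g089630.3), with a median log2 fold change of 2.15. Of 227 genes on chromosomes that were at least 8-fold higher, 40 lay in 17 runs of neighbours. One such run joined ERF-J1 and HSTF24 on chromosome 2.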
